A study of Mus musculus with 9 samples.

Results

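The genes of 10 myeloid C-type lectin receptors were followed in cultured gut mesenchyme treated with hedgehog ligands. They were Clec4e, Clec4d, Clec4n, Clec4a2, Clec4a3, Clec5a, Clec7a, Clec10a, Mrc1 and Cd209f, which 13 probe sets of 34945 with a single gene symbol measured, or 10 of 18193 genes. They were chosen by family, with the fall of Clec4e under the ligands already in view. The differences of Clec4e from Vehicle are therefore given without a test, and no count over the receptors is offered as evidence. The study took small intestinal mesenchyme, the connective tissue and muscle layer under the gut epithelium, from C57Bl/6J mouse embryos at E18.5 and grew it for 48 h on collagen in serum-containing medium. The 9 arrays, 3 of each treatment, then came from cells given Shh ligand for 24 h, from cells given Ihh ligand for 24 h and from control cells given Vehicle for 24 h, all of the same strain and age. Each array was a pool drawn from the 6 wells of its treatment, so the p-values measure the spread between pools of wells. The labels give no ligand dose and do not say what Vehicle was.

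C-type lectin receptors sit in the membrane of macrophages, dendritic cells and neutrophils and bind sugars or glycolipids of microbes and of damaged cells. Many activating members have no long signalling tail and borrow one from the adaptors Fcer1g or Tyrobp, through which they reach the kinase Syk and the Card9 complex and so NF-kB, while inhibitory members carry a tail motif that recruits phosphatases. Others, such as the mannose receptor, mainly take up their ligands. In bulk cultures such as these, fewer cells of a type and less RNA per cell cannot be told apart.

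Levels below are RMA values on the log2 scale, and a difference of 1 is a doubling. Array medians lay between 5.87 and 5.92 log2, and low values are compressed towards background, so differences that reach below these medians may be understated. The pathway responded on these arrays: Ptch1, the hedgehog receptor and target, read 10.35 to 10.98 log2 with the ligands and 9.06 to 9.25 with Vehicle. The labelled tissue was checked by 12 mesenchyme markers, which averaged 11.40 to 11.58 log2 on the treated arrays and 11.52 to 11.66 on the Vehicle arrays, and Csf1r, the growth factor receptor of macrophages, lay at 12.00 to 12.35 log2 on the 9 arrays. RNA integrity was read from the 3' minus 5' values of Gapdh and actin. That of Gapdh lay at -0.19 to -0.04 log2 in treated pools and -0.08 to 0.03 in Vehicle pools. That of actin lay at 0.12 to 0.18 in treated pools and 0.15 to 0.28 in Vehicle pools. The part of RNA integrity in the results was not tested.

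Clec4e, or Mincle, recognises mycobacterial cord factor and other glycolipids and signals through Fcer1g. It read 5.61, 5.68 and 4.90 log2 with Shh, 4.70, 4.81 and 4.86 with Ihh, and 7.34, 6.85 and 7.62 with Vehicle. All 6 treated arrays lay below all 3 Vehicle arrays by more than 1 log2 unit, the Ihh arrays lay close together, and of the Shh arrays the third sat with them. The group means were 5.39 ± 0.43 with Shh, 4.79 ± 0.08 with Ihh and 7.27 ± 0.39 with Vehicle (SD, n = 3 each). That is 3.68-fold lower with Shh and 5.59-fold lower with Ihh than with Vehicle. A second, dimmer probe set of Clec4e read 3.88 to 4.13 log2 on the treated arrays and 4.43 to 4.71 on the Vehicle arrays, again without overlap, with a difference of -0.54 log2. Both sets thus had the same direction and differed in size, and the dimmer set lay under the array median on all 9 arrays.

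Clec4d, also called MCL, is the partner that forms a complex with Mincle and helps bring it to the cell surface. It read 10.35, 10.08 and 10.02 log2 with Shh, 9.69, 9.28 and 9.68 with Ihh, and 10.96, 10.96 and 11.28 with Vehicle. The groups stood in 3 separate bands, Ihh lowest and Vehicle highest. Clec4d fell by 0.92 ± 0.13 log2 with Shh (SE, limma adjusted p = 0.0119) and by 1.52 ± 0.13 with Ihh (adjusted p = 0.000532), and for both ligands together it was 2.32-fold lower (adjusted p = 0.000812). Without Shh 2 the call for Shh ended (adjusted p = 0.052). Its probe set is of a kind that can also bind related transcripts, so a share of signal from a close relative cannot be told apart.

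The start sites of Clec4e and Clec4d are shown because the genes lie next to each other and were both lower on every treated array. The 250 bases before each start, from the RefSeq promoter table (GRCm38.p6), run 5′ to 3′ on the gene's own strand, at chr6:123289872-123290121 (minus strand) for Clec4e and chr6:123261857-123262106 (plus strand) for Clec4d. Capitals mark matches, on either strand, to GAGGAA, letters of the PU.1 motif of myeloid genes, and to TTGCNNAA, letters of the C/EBP motif.
Clec4e: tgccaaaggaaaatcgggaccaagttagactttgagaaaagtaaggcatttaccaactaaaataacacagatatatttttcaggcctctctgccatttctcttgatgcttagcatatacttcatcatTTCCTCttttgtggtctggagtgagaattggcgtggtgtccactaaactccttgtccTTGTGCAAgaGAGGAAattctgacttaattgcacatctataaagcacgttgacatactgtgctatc
Clec4d: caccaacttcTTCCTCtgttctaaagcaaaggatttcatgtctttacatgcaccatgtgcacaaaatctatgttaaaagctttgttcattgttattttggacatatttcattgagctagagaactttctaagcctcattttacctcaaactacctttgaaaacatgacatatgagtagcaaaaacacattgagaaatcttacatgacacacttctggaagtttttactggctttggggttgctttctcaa
In Clec4e a C/EBP-like match stood 66 to 59 bases before the start, with a PU.1-like match 56 to 51 bases before it and another at 123 to 118. In Clec4d the only match was PU.1-like, at 240 to 235 bases before the start. Promoter windows were at hand for 8 of the 10 receptors, not for Clec4n or Clec10a. The C/EBP-like letters stood in 1 of the 8, Clec4e, and in 9.56% of all 32851 promoters of that length. The PU.1-like letters stood in 6 of the 8, counting a gene when any of its start sites held them, and in 23.3% of all promoters. Letters of the NF-kB motif (GGG and CC with any 5 bases between them, 45.8% of all promoters) stood in those of Mrc1 and Cd209f, letters of the AP-1 motif (TGANTCA, 6.75%) in that of Cd209f, and CCACCCA, core letters of the Gli motif (8.11%), in 0 of the 8. No 2 different motifs overlapped in these windows. A match describes letters and not a bound site, and the lack of a match says only that the letters are not in this window.

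Clec4n, or Dectin-2, binds mannose-rich sugars of fungi and also signals through Fcer1g. It read 10.91, 10.63 and 10.55 log2 with Shh, 10.35, 10.20 and 10.38 with Ihh, and 10.88, 10.85 and 11.27 with Vehicle. The Ihh arrays lay below every Vehicle array, whereas the highest Shh array lay above the lower 2 Vehicle arrays. Clec4n fell by 0.69 ± 0.13 log2 with Ihh (adjusted p = 0.0463), while its difference was -0.31 ± 0.13 with Shh (adjusted p = 0.232) and -0.50 ± 0.11 for both ligands (adjusted p = 0.0589). The Ihh call was lost when any array but Shh 1 or Vehicle 3 was left out (highest adjusted p = 0.192). It was also lost with the replicate number as a block (adjusted p = 0.0631). Same-numbered Ihh and Vehicle pools deviated together, but some pools of unlike number did too, so whether this block applies is not settled. The second probe set of Clec4n gave -0.64 log2 with Ihh and -0.22 with Shh. The brighter set, like that of Clec4d, is of a kind that can also bind related transcripts.

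Clec7a, or Dectin-1, is the receptor for beta-glucans of fungal cell walls and carries its own short activating tail. It read 12.57, 12.32 and 12.30 log2 with Shh, 11.91, 11.80 and 12.26 with Ihh, and 11.48, 11.64 and 12.15 with Vehicle. Every Shh array lay above every Vehicle array, the Ihh arrays overlapped with Vehicle, and Vehicle 3 stood above the other Vehicle arrays. The difference was 0.64 ± 0.17 log2 with Shh (adjusted p = 0.0967), 0.24 ± 0.17 with Ihh (adjusted p = 0.782) and 0.44 ± 0.15 for both ligands (adjusted p = 0.213), none past the threshold. Without Vehicle 3 it was 0.64 for both ligands (adjusted p = 0.0328) and 0.84 with Shh (adjusted p = 0.0144). No other removal of 1 array passed the threshold, and the adjusted p for both ligands reached 0.598. Clec7a was thus not among the receptors that fell, and its 95% interval for both ligands ran from 0.11 to 0.77 log2.

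Clec4a2, or DCIR1, is an inhibitory receptor whose tail recruits phosphatases such as Ptpn6. It read 6.52, 6.68 and 6.05 log2 with Shh, 6.39, 6.67 and 6.62 with Ihh, and 7.88, 8.01 and 7.50 with Vehicle. The treated arrays of both ligands lay in the same range and all of them under Vehicle. Clec4a2 fell by 1.38 ± 0.17 log2 with Shh (adjusted p = 0.00547) and by 1.23 ± 0.17 with Ihh (adjusted p = 0.011), 2.47-fold for both ligands (adjusted p = 0.00231). The Ihh call ended without Ihh 1, Vehicle 1 or Vehicle 2, at up to 0.0591. A second, dimmer probe set of Clec4a2 read 4.98 to 5.16 log2 on the treated arrays and 5.20 to 5.55 with Vehicle, without overlap, but its difference of -0.32 for both ligands missed the threshold when probe sets were tested singly (adjusted p = 0.0877). The 250 bases before its start (chr6:123122440-123122689, plus strand, GRCm38.p6) are shown beside those of the activating pair, and no capitals appear because none of the letters searched were found in it.
Clec4a2: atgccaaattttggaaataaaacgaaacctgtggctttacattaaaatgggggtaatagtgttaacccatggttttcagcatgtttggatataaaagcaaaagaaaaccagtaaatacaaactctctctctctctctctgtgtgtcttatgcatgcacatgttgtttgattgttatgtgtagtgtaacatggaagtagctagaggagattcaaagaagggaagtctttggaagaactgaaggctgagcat

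Clec4a3, also called DCIR3, is a close relative of Clec4a2. It read 4.93, 5.24 and 5.14 log2 with Shh, 5.48, 5.87 and 5.03 with Ihh, and 7.19, 6.97 and 5.48 with Vehicle. Vehicle 1 and Vehicle 2 stood more than 1 log2 unit above all treated arrays, while Vehicle 3 fell among the Ihh arrays. The difference of -1.26 ± 0.33 log2 for both ligands did not pass the threshold (adjusted p = 0.106). Without Vehicle 3 it was -1.80 (adjusted p = 0.00115), with -1.98 for Shh (adjusted p = 0.00152) and -1.62 for Ihh (adjusted p = 0.00456). Leaving out any other array brought no call of Clec4a3, and its adjusted p for both ligands reached 0.371. Vehicle 3 was also the lowest Vehicle array for Ifit1, Usp18 and Rsad2, interferon-stimulated genes picked after these values were seen and not a list. Ifit1 read 5.16 to 6.50 log2 on the treated arrays and 8.68, 8.85 and 6.70 on Vehicle 1, 2 and 3. Usp18 read 5.98 to 7.26 on the treated arrays and 9.06, 9.09 and 7.23 on the Vehicle arrays, and Rsad2 read 7.73 to 8.72 on the treated arrays and 10.36, 10.34 and 9.11 on the Vehicle arrays. The part of interferon signalling in the level of Clec4a3 was not tested.

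Clec5a, or MDL-1, signals through Tyrobp. It read 6.26, 5.96 and 5.92 log2 with Shh, 5.42, 5.39 and 5.95 with Ihh, and 5.55, 5.98 and 6.20 with Vehicle. The 3 groups overlapped, and the difference for both ligands was -0.09 ± 0.16 log2 (adjusted p = 0.875).

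Of the receptors that mainly take up sugars, Mrc1, the mannose receptor, read 9.44, 9.33 and 9.18 log2 with Shh, 9.37, 9.46 and 9.34 with Ihh, and 9.25, 9.33 and 9.16 with Vehicle. The 9 arrays spanned 9.16 to 9.46 log2, and the 95% interval of the difference for both ligands was -0.04 to 0.25. Clec10a, which binds galactose-type sugars and is carried by alternatively activated macrophages, read 5.17, 5.27 and 5.22 log2 with Shh, 5.17, 5.20 and 5.28 with Ihh, and 4.86, 4.94 and 5.10 with Vehicle. All treated arrays of Clec10a lay above all Vehicle arrays, by a small step of 0.25 ± 0.06 log2 that missed the threshold (adjusted p = 0.0785). The step passed it only without Vehicle 3 (0.32, adjusted p = 0.0267), and with other arrays left out the adjusted p reached 0.293. Cd209f, a mouse relative of the dendritic cell lectin DC-SIGN, read 5.35, 5.61 and 5.26 log2 with Shh, 5.36, 5.16 and 5.30 with Ihh, and 5.35, 5.40 and 5.35 with Vehicle, which overlapped (difference -0.03 ± 0.08, adjusted p = 0.924). Clec10a and Cd209f lay under the array median on all 9 arrays, so a change in them could be hidden.

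**Figure D1:**
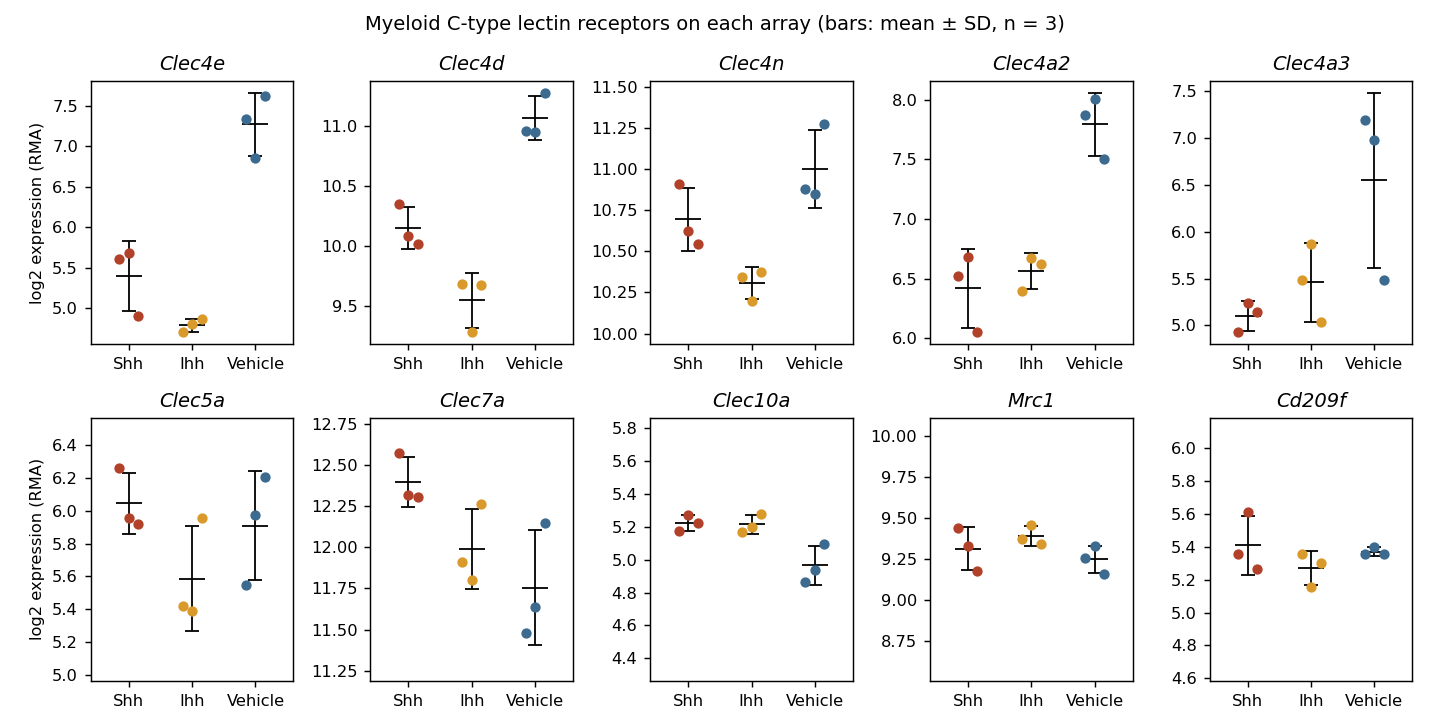
Log2 expression (RMA) of the brightest probe set of each receptor on the 3 Shh, 3 Ihh and 3 Vehicle arrays, with the mean and SD of each treatment as bars. Vertical axes differ between panels. Treated and Vehicle arrays do not overlap in Clec4e, Clec4d and Clec4a2, and in Clec10a the treated arrays lie above.

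Clec4e set aside, limma called 2 of the other 9 receptors lower for both ligands against Vehicle, Clec4d and Clec4a2, where 1.07% of all 18193 genes were called lower. The same 2 receptors were called with Shh (1.24% of all genes called lower), and these and Clec4n with Ihh (0.456% of all genes called lower). Since Clec4e was in view from these comparisons, which share the Vehicle arrays, nothing is read from the counts. The median difference of the 10 receptors, Clec4e included, for both ligands was -0.30 log2, beside 0.00 over all genes. Counting Clec4e, the treated arrays lay below the Vehicle arrays without overlap in 3 receptors (3.8% of all genes) and above them in 1 (2.67% of all genes).

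The rule that chose the receptors did not use the difference between the ligands, which was tested for all 10. Earlier results of these data were known, however, and Clec4e was in view from the comparisons with Vehicle. Nothing is therefore read from the counts here either. None passed the threshold in limma (0.011% of all genes did), and 5 of 10 were higher with Shh than with Ihh at an unadjusted p under 0.05, beside 7.17% of all genes. In Clec4e Shh lay above Ihh by 0.60 ± 0.22 log2 (95% interval 0.11 to 1.10, adjusted p = 0.322), and its second probe set gave 0.05. In Clec4d the difference was 0.60 ± 0.13 (0.30 to 0.90, adjusted p = 0.284) and in Clec4n 0.39 ± 0.13 (0.11 to 0.67, adjusted p = 0.308). Clec5a differed by 0.46 (0.04 to 0.88, adjusted p = 0.362) and Clec7a by 0.41 (0.02 to 0.79, adjusted p = 0.371). The Shh arrays lay above the Ihh arrays without overlap in Clec4e, Clec4d, Clec4n and Clec7a, beside 9.37% of all genes. The gap was narrow in Clec4e (Shh 3 at 4.90 and Ihh 3 at 4.86 log2) and in Clec7a (12.30 and 12.26). Clec4e also read below the array medians on these arrays. For Clec4a2 the interval was -0.53 to 0.24 log2, and for Mrc1 -0.25 to 0.09. The 2 genes called between the ligands among all genes were Acod1, the itaconate-producing enzyme of activated macrophages, at 1.11 ± 0.09 log2 (adjusted p = 0.00519), and Marco, a macrophage scavenger receptor, at 1.78 ± 0.18 (adjusted p = 0.0142), both higher with Shh.

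**Figure D2:**
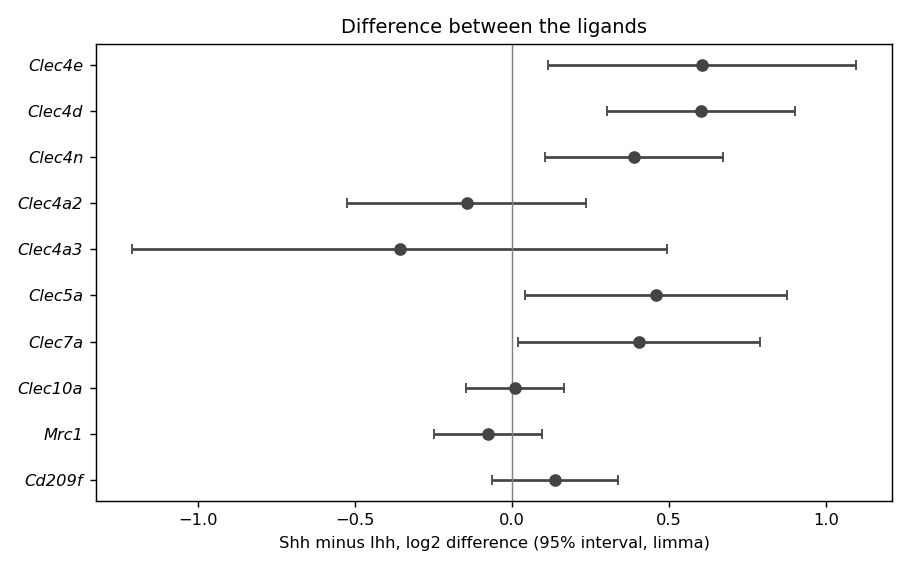
Difference between the ligands for each receptor, Shh minus Ihh on the log2 scale, with the 95% interval from limma as bars. Clec4e, Clec4d, Clec4n, Clec5a and Clec7a lie to the right of 0 before adjustment, and all 10 miss the adjusted threshold.

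By position, 5 of the receptors belong to 1 cluster on mouse chromosome 6, in which 9 protein-coding genes follow each other from Clec4a1 to Clec4e in the RefSeq gene table. The order is Clec4a1, Clec4a3, Clec4a4, Clec4b1, Clec4a2, Clec4b2, Clec4n, Clec4d and Clec4e, of which 6 were measured and Clec4a1, Clec4a4 and Clec4b2 were not analysed here. Clec4b1, Necap1 and C3ar1 were looked up for their position after the values were seen. Clec4b1, which lies between Clec4a3 and Clec4a2, read 3.53 to 3.65 log2 on the treated arrays and 3.56 to 3.57 with Vehicle (difference 0.01, adjusted p = 0.937), at the low end of the arrays where a change could not be seen. The difference for both ligands was -1.26 log2 in Clec4a3 and -1.30 in Clec4a2. At the Clec4e end of the cluster it was -0.50 in Clec4n, -1.22 in Clec4d and -2.18 in Clec4e. Its size thus did not follow position through the cluster. On the other side of the cluster, Necap1, an adaptor of endocytosis, differed by 0.00 (adjusted p = 0.992) and C3ar1, the receptor for complement C3a on myeloid cells, by -0.34 (adjusted p = 0.0605). Clec7a and Clec5a lie elsewhere on chromosome 6, Mrc1 on chromosome 2 and Cd209f on chromosome 8.

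**Figure D3:**
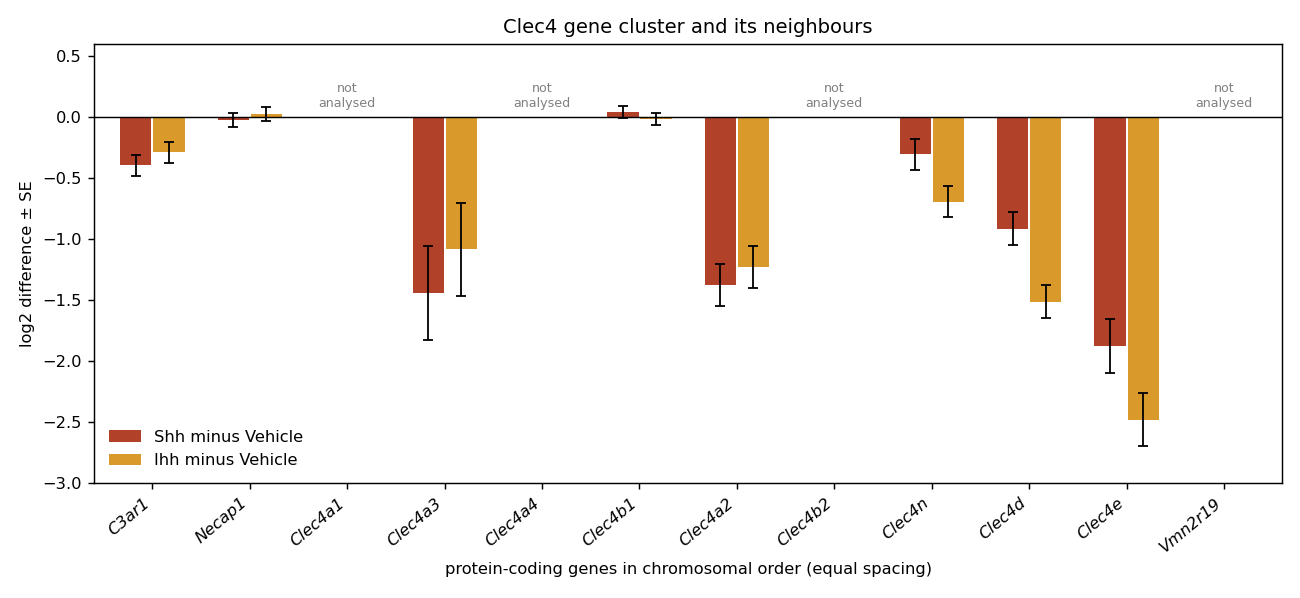
Log2 difference from Vehicle, with its SE, for Shh and Ihh in the protein-coding genes of the Clec4 cluster and its neighbours, in chromosomal order with equal spacing. Clec4a3, Clec4a2, Clec4n, Clec4d and Clec4e lie below 0 under both ligands, and Clec4b1 and Necap1 near 0.

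Of the signalling partners of these receptors, Fcer1g, the adaptor of Clec4e, Clec4d and Clec4n, read 10.49 to 10.67 log2 on the treated arrays and 10.77 to 10.97 with Vehicle, a difference of -0.29 ± 0.06 that narrowly missed the threshold (adjusted p = 0.0529). Tyrobp, the adaptor of Clec5a, differed by 0.11 (adjusted p = 0.278), the kinase Syk by -0.20 (adjusted p = 0.223), and the phosphatases Ptpn6 and Inpp5d by -0.22 (adjusted p = 0.12) and -0.07 (adjusted p = 0.577). Card9 was not analysed here. For both ligands, where 0.434% of all genes were called higher and 1.07% lower, 0 of 20 measured genes of C-type lectin signalling rose and 1 fell, Vav1, a guanine nucleotide exchange factor downstream of Syk, at -0.38 ± 0.07 (adjusted p = 0.0278), and the list's median was -0.04 log2. Of 14 genes that Dectin-1 and Mincle are known to induce in phagocytes 0 rose and 5 fell (1.07% of all genes called lower): Il1b at -1.73 ± 0.13 log2, Cxcl1 at -1.50 ± 0.14, Cxcl2 at -2.03 ± 0.22, Il6 at -1.74 ± 0.19 and Csf3, the neutrophil growth factor, at -0.62 ± 0.09 (adjusted p = 0.0119 for Csf3), with a median of -0.16 over the list. These genes answer to many other receptors as well.

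Among 15 measured transcription factors of inducible myeloid genes 0 rose and 2 fell (1.07% of all genes called lower), with a median of -0.28 log2. Cebpb, the C/EBP factor under whose control Mincle was first described, read 10.43 to 10.79 log2 on the treated arrays and 11.22 to 11.37 with Vehicle, without overlap, and fell by 0.62 ± 0.08 (adjusted p = 0.00396). Nfkb2, an NF-kB subunit, fell by 0.28 ± 0.05 (adjusted p = 0.0259). Spi1, which encodes PU.1, differed by -0.26 ± 0.08 (adjusted p = 0.146). Of 14 other receptors for glycans or mycobacteria 0 rose and 5 fell (1.07% of all genes called lower), among them Marco at -3.20 ± 0.15, Cd14, a co-receptor for endotoxin, at -1.66 ± 0.10, Tlr2, which senses bacterial lipoproteins, at -1.11 ± 0.07 and the integrin Itgam at -0.91 ± 0.09 (adjusted p of at most 0.00107 for each), with a median of -0.23.

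The genes whose levels across the 9 arrays ran closest to Clec4e, by the root mean square difference after each gene was centred on its Vehicle mean, were Cxcl2 (0.22 log2), Cxcl3 (0.29), Acod1 (0.39), Stfa3 (0.39) and Saa3 (0.39). Cxcl2 and Cxcl3 are neutrophil chemokines, Stfa3 a cathepsin inhibitor of myeloid cells and Saa3 an acute-phase protein. Among the receptors the nearest were Clec4d (0.83, rank 19 of 18192 genes) and Clec4a2 (0.84, rank 22), and the farthest was Clec7a (2.16). This measure follows the size of the change as much as its shape, and the arrays of a treatment share that treatment, so it is a description.

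**Figure D4:**
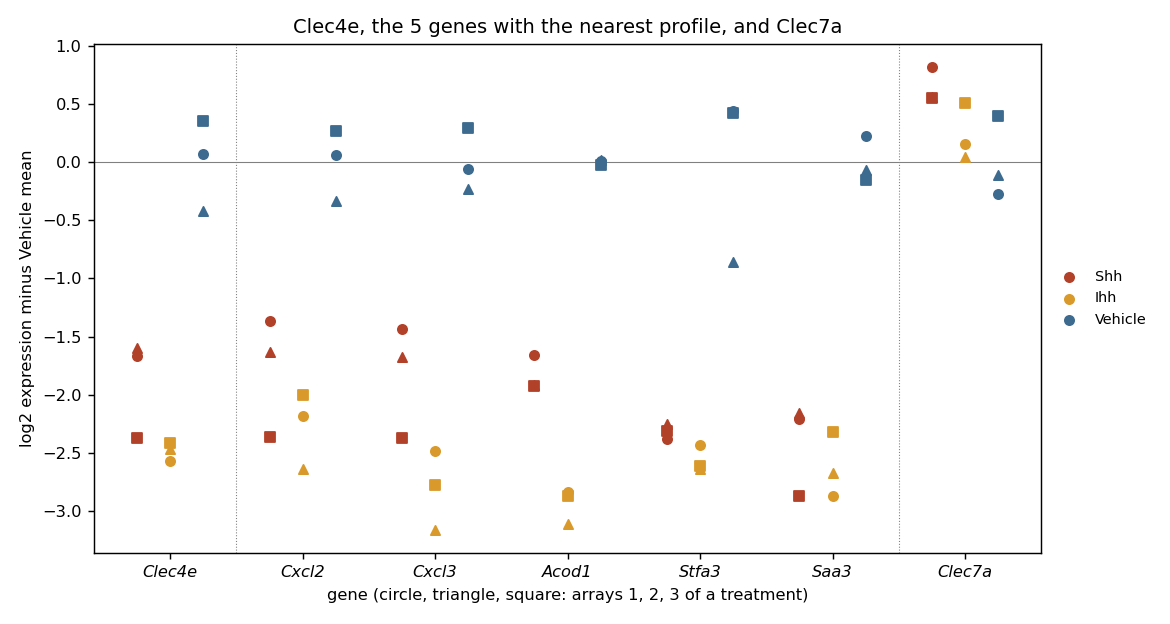
Log2 expression minus the gene's Vehicle mean on each Shh, Ihh and Vehicle array for Clec4e, the 5 genes nearest to it and Clec7a, with circles, triangles and squares for arrays 1, 2 and 3. The treated arrays of Clec4e and its 5 nearest genes lie below all their Vehicle arrays, with average differences of -2.52 to -2.03 log2, and those of Clec7a lie above 0.

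Macrophage transcripts were present on all arrays beside the receptors. Of 18 macrophage and monocyte markers 2 rose (0.434% of all genes called higher) and 4 fell (1.07% called lower), with a median difference of 0.02 log2, and their average was 9.87 to 10.01 log2 on the treated arrays and 9.91 to 10.21 on the Vehicle arrays. The list did not move as one: Adgre1, the macrophage antigen F4/80, fell by 1.04 ± 0.08 (adjusted p = 0.000269), reading 8.69 to 8.92 on the treated arrays and 9.64 to 10.03 with Vehicle, and Cd14 and Itgam fell as given above. Cx3cr1, the fractalkine receptor, rose by 0.87 ± 0.17 (adjusted p = 0.0384) and Laptm5, a lysosomal membrane protein of blood cells, by 0.37 ± 0.07 (adjusted p = 0.0347). Of the brightest of the list, Lyz2 fell by 0.26 ± 0.05 (adjusted p = 0.0494), Ctss differed by 0.05 (adjusted p = 0.799) and Csf1r by 0.00 (adjusted p = 0.995). Of 10 neutrophil markers 1 fell, the collagenase Mmp8 at -1.64 ± 0.07 (adjusted p = 5.62e-06). Their average was 5.51 to 5.81 log2 in treated pools and 5.72 to 5.92 in Vehicle pools. Levels differed within this list. The granule enzymes Mpo and Elane lay at 4.36 to 4.67 and 4.27 to 4.75 on all arrays. Camp and S100a8, among its brightest genes, lay at 7.61 to 8.32 and 7.17 to 8.81. They differed by -0.31 (adjusted p = 0.202) and -0.21 (adjusted p = 0.852) for both ligands. Of 11 dendritic cell markers 1 rose, Cd83, an activation marker, at 0.71 ± 0.09 (adjusted p = 0.00555), and their average was 5.97 to 6.10 log2 in treated pools and 5.85 to 5.93 in Vehicle pools. For both ligands none of 9 mast cell, 10 lymphocyte, 10 endothelium, 11 epithelium and 12 mesenchyme markers passed the threshold in limma, with 0, 1, 5, 0 and 5 of them at an unadjusted p under 0.05, beside 13.7% of all genes. Those 5 endothelium markers were all lower (list median -0.22 log2), and the 5 mesenchyme markers were 2 higher and 3 lower. With Shh 1 endothelium marker was called lower, where 1.24% of all genes were. The epithelium markers varied most between arrays, with averages of 5.77 to 7.78 log2 in treated pools and 5.81 to 7.80 in Vehicle pools. Which cells the receptor transcripts came from, and the part of cell numbers in the differences, was not tested.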

How the data were processed

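The deposited values were log2 expression, 1 value for each of 45101 probe sets on 9 Affymetrix arrays of biotin-labelled cRNA. GCOS and RMA are named, without versions, per the submitters' processing notes. Values of 2.78 to 14.20 fit a log2 scale. RMA gives the arrays 1 distribution, which hides any change common to all genes.

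Gene symbols came from the platform annotation. They were checked against the RefSeq gene table of GRCm38.p6, where 34741 of 34945 identifiers matched with 0 symbols altered. The brightest single-symbol probe set stood for each of 18193 genes, and all 13 probe sets of the receptors were also examined. In limma 3.58.1 (R 4.3.3), lmFit and eBayes estimated the 3 group means from the 9 arrays together. Both ligands, Shh and Ihh were each set against Vehicle, and Shh against Ihh. Every adjusted p is from these two-sided limma tests, with Benjamini-Hochberg adjustment across the whole gene table and a threshold of 0.05. In simulated data for both ligands against Vehicle, with 18193 genes, 48.4% of genes changed 1.25-fold were recovered and 89.2% at 1.5-fold. Of the calls 4.21% were false. Noise was drawn independently for each gene and array with the gene's estimated SD, and few genes were changed. Residuals of the real arrays correlate between some arrays, so these rates may not hold for them.

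Whether replicate numbers pair the pools was checked by the correlation of residuals of same-numbered arrays. It was 0.35, 0.23 and 0.54 between Ihh and Vehicle. It was over 0.1 in 1 of the 3 pairs of Shh and Vehicle and 0 of 3 of Shh and Ihh. Arrays of unlike number reached up to 0.29, and 6 of 18 such pairs were over 0.1, beside 4 of 9 same-numbered pairs. These correlations therefore do not settle whether the numbers pair the pools. The labels state only random pooling of wells.

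The receptors and the gene lists were chosen with earlier results of these data known. Named beside the receptors were up to 4 called genes with the smallest p of each list (or the first, where none was called), the 3 brightest of each marker list, direct signalling partners and regulators, and the 5 genes nearest to Clec4e. Not all of these are printed. Csf3, Clec4b1, Necap1, C3ar1, Ifit1, Usp18, Rsad2, Adgre1, Cx3cr1, Laptm5, Timd4, Gas6, Mpo and Elane were not covered by this rule and were picked with their values in view. The same holds for Cd163, Chil3, Mgl2 and Retnla. Alternatives were the replicate number as a block, quantile normalization, centring on array medians, leaving out genes under the 40th percentile of level, every probe set singly, averaging the probe sets of each gene, a trended and robust variance, only the groups compared, and leaving out each array.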

Additional observations from a re-analysis of the deposited data

How the results depend on the processing

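The called receptors kept their direction in every alternative that left them in, and the calls of Clec4d and Clec4a2 for both ligands ended only in the second probe set of Clec4a2. The number of all genes called moved from 314 to 522 for Shh against Vehicle with the replicate number as a block, and from 2 to 0 for Shh against Ihh in limma when only these arrays were fitted (2381 at an unadjusted p under 0.05). Leaving out 1 array gave 99 to 416 genes for both ligands, 80 to 675 for Shh, 53 to 229 for Ihh and 1 to 2 between the ligands. The receptors called then numbered 3 to 6, 2 to 6 and 2 to 5 against Vehicle, counting Clec4e, with the highest counts without Vehicle 3. With the replicate block, Clec4n lost its Ihh call at an adjusted p of 0.0631, and no other receptor call changed. Clec4n also missed it with quantile normalization (0.0512), the mean of its probe sets (0.0628) and only the groups compared (0.0837), and for both ligands it passed with dim genes left out (0.0462) and with a trended and robust variance (0.049). The causes were not tested. The filter on dim genes kept 5 of the 10 receptors and left out Clec4e. Groups of 3 arrays limit the precision, and Clec10a and Cd209f on all 9 arrays, and Clec4e and Clec4a3 on the treated ones, read below the array medians.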

Other observations

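Further myeloid C-type lectins, 20 measured genes, averaged 5.19 to 5.30 log2 in treated pools and 5.24 to 5.25 in Vehicle pools, under the array medians. Of these 20 limma called 0 for both ligands against Vehicle (at an unadjusted p under 0.05, 1 was higher and 2 were lower), with a median of 0.03 log2, and the smallest p was that of Cd69, an early activation marker, at -0.31 ± 0.10 (adjusted p = 0.202). Of 24 C-type lectins of stroma, vessels and plasma limma also called 0 (1 higher and 0 lower unadjusted), with a median of 0.06. The smallest p there was that of Colec10, a secreted collectin, which read 7.84, 7.82 and 7.05 log2 with Shh, 6.75, 7.34 and 8.08 with Ihh, and 6.50, 6.45 and 6.29 with Vehicle, a difference of 1.07 ± 0.26 (adjusted p = 0.0852) with all treated arrays above all Vehicle arrays.

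Of 15 markers of resident and alternatively activated macrophages, the cells known for Mrc1 and Clec10a, 3 rose and 0 fell for both ligands, where 0.434% of all genes were called higher, and 3 others were lower at an unadjusted p under 0.05. The genes that rose were the growth factor gene Igf1 at 0.77 ± 0.10 log2 (adjusted p = 0.00406), Timd4, a phosphatidylserine receptor of resident macrophages, at 0.73 ± 0.10 (adjusted p = 0.00754), and Gas6, a ligand of TAM receptors in the uptake of dead cells, at 0.55 ± 0.08 (adjusted p = 0.00834). Igf1 is also made by mesenchyme, and which cells the 3 transcripts came from was not tested. Of the other brightest markers, Selenop, a plasma selenoprotein, differed by 0.36 ± 0.11 (adjusted p = 0.164) and Maf, a macrophage transcription factor, by -0.32 ± 0.09 (adjusted p = 0.137). The list's median was 0.04 log2. Some of its members read under the array medians on every array, so a change in them could be hidden. These included Cd163 at 3.72 to 4.16 log2, Chil3 at 3.33 to 3.66, Mgl2 at 4.16 to 4.42 and Retnla at 3.95 to 4.35.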
